A study of Mus musculus with 9 samples.

Results

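Slc22 genes encode carriers that move organic anions, organic cations, urate and carnitine across cell membranes. The 9 described here are Slc22a2, Slc22a4, Slc22a5, Slc22a6, Slc22a7, Slc22a8, Slc22a12, Slc22a13 and Slc22a19. They were picked by name from a table of 55359 mouse genes, which also lists 16 other Slc22 genes, and all 9 passed the filter on low counts. Their RNA was measured by sequencing of whole kidney in 3 groups of 3 libraries. The HFD-STZ DHZ group was fed a high-fat diet (HFD, 49.0% of calories from fat) from 6 weeks of age and given 2 injections of 30 mg/kg streptozotocin (STZ), a toxin of beta cells, on days 60 and 63. Once high blood glucose had been found on day 65, this group received dehydrozingerone (DHZ), a phenolic compound of ginger, by mouth at 50 mg/kg for 2 weeks. The HFD-STZ vehicle group had the same diet and STZ, with vehicle in place of DHZ. The NCD vehicle group, also started at 6 weeks of age, was fed a normal calorie diet (NCD, 11.32% of calories from fat). It was given vehicle, with no STZ. Strain, sex and the vehicle itself are not given in the labels, and sample titles gave the groups, because the treatment label has the compound on all 9 libraries.

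In the proximal tubule, carriers on the blood side and on the urine side of the cell act in series to secrete or recover solutes. OAT1 (Slc22a6) and OAT3 (Slc22a8) take organic anions, including many drugs and uraemic solutes, up from blood in exchange for alpha-ketoglutarate, and OCT2 (Slc22a2) takes up cations such as creatinine and metformin. On the luminal face URAT1 (Slc22a12) reabsorbs urate, OAT10 (Slc22a13) carries urate and nicotinate, and the rodent carrier Oat5 (Slc22a19) exchanges organic anions. OCTN1 (Slc22a4) carries ergothioneine and OCTN2 (Slc22a5) recovers carnitine. Several of these genes are known to differ between male and female rodent kidneys.

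Promoter windows are shown for 3 of the 9 genes, among them the only 2 whose windows hold GTTAAT. Slc22a6 and Slc22a8 both encode basolateral anion exchangers on chromosome 19 and differed in whether they followed Y-linked transcripts. Slc22a13 was lower in libraries with those transcripts. Each window is 300 bases from RefSeq on build GRCm38.p6, from 250 bases before to 50 after the start of the gene, written 5′ to 3′ on the strand of the gene. The authors' counts were made on GRCm39. Capitals mark GTTAAT, a part of the site of the tubule factor HNF1, in Slc22a6 and Slc22a8, and the window of Slc22a13 has no capitals.
Slc22a6 (chr19:8617746-8618045, plus strand): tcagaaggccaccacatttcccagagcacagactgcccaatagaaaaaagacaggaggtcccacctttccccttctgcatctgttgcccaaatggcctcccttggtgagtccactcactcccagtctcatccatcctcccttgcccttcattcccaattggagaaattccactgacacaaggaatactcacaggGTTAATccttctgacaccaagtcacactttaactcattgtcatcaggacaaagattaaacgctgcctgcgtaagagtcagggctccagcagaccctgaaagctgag
Slc22a8 (chr19:8592932-8593231, plus strand): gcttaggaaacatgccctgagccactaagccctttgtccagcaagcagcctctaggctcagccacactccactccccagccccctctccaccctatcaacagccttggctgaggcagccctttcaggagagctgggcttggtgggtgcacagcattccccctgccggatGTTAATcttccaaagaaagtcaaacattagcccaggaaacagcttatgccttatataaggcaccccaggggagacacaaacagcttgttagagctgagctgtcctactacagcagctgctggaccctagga
Slc22a13 (chr9:119209056-119209355, minus strand): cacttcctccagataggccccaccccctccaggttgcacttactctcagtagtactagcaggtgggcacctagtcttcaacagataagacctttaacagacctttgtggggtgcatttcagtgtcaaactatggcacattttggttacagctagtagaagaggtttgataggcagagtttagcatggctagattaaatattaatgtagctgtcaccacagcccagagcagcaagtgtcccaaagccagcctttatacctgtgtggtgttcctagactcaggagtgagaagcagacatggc
The GTTAAT match begins at base -56 from the start in Slc22a6 and at base -81 in Slc22a8, on the strand of the gene in both. RefSeq windows were at hand for 8 of the 9 genes, all but Slc22a7. Of these 8, 2 hold GTTAAT on either strand, against 1 of 15 windows of other Slc22 genes and 7.1% of 32851 windows of all genes. CAAAGTC, the core of the site of HNF4, was in 0 of 8, against 2 of 15 windows of other Slc22 genes and 4.44% of all windows. With so few windows these counts are no result about the 9 genes.

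Total counts were 15.1 to 47.5 M (mega) a library, and the lowest count of any of the 9 genes in any library was 80. Levels are given as CPM, counts per M of library size after TMM scaling (trimmed mean of M values). All 10 markers of the proximal tubule, where most of these carriers are known to act, were at or above 1 CPM in each group. Whether each library stands for its own animal is not stated in the labels, and p-values therefore cover only the spread among these 9 libraries, which may be technical in part. The labels date each library to a different batch, on successive days and group after group. Whether these dates mark real batches is not stated, and as dated, group and batch cannot be told apart. Summed over the Y-linked genes Ddx3y, Uty, Kdm5d and Eif2s3y, there were 36.5 to 106 CPM of the total count in 4 libraries and 0 to 0.209 CPM in the other 5, while the X-inactivation RNA Xist gave 0.109 to 0.848 and 500 to 779 CPM of the total count in the same 2 sets. The 4 libraries with Y-linked transcripts are HFD-STZ DHZ replicate 3, HFD-STZ vehicle replicates 2 and 3 and NCD vehicle replicate 1. Each group thus holds both kinds, and so more than 1 animal. HFD-STZ DHZ replicate 3 also stands apart in most, but not all, listed markers of tubular injury. Its Havcr1 was at 46.3 CPM, against 0.0767 to 2.59 CPM in the other 8 libraries, its Lcn2 at 12.5 CPM, against 0.249 to 2.39 CPM, and its Vcam1 at 29.8 CPM, against 2.70 to 6.74 CPM. Its Krt20, which did not pass the filter, was at 5.99 CPM, against 0.0415 to 0.416 CPM. Its Sox9 was not raised within the HFD-STZ groups, at 5.55 CPM. Sox9 was at 6.19 and 6.26 CPM in HFD-STZ DHZ replicates 2 and 1, 9.98 to 19.3 CPM in HFD-STZ vehicle and 0.642 to 1.33 CPM in NCD vehicle. HFD-STZ DHZ replicate 3 had the lowest Slc22a7, Slc22a13 and Slc22a19 of all 9.

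Set beside each other per kb of exon, Slc22a12, Slc22a8 and Slc22a2 stood highest and Slc22a4 and Slc22a19 lowest. Slc22a12 stood at 54.9 ± 25.1 CPM per kb (mean ± SD over 9 libraries), followed by Slc22a8 at 45.0 ± 15.3, Slc22a2 at 41.6 ± 20.9 and Slc22a6 at 32.4 ± 23.7 CPM per kb. Slc22a13 followed at 25.1 ± 17.2, Slc22a7 at 13.7 ± 9.56, Slc22a5 at 10.9 ± 1.99, Slc22a4 at 4.78 ± 1.38 and Slc22a19 at 4.33 ± 2.91 CPM per kb. Slc22a13 was above Slc22a7, and Slc22a5 above Slc22a4, in 9 of 9 libraries. The other neighbours in this order changed places between libraries, with the gene named first higher in 4 to 7 of 9, so their order does not exceed the spread. Relative to their means, Slc22a5 and Slc22a4 had the smallest spread, and Slc22a6, Slc22a7, Slc22a13 and Slc22a19 the largest.

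**Figure D1:**
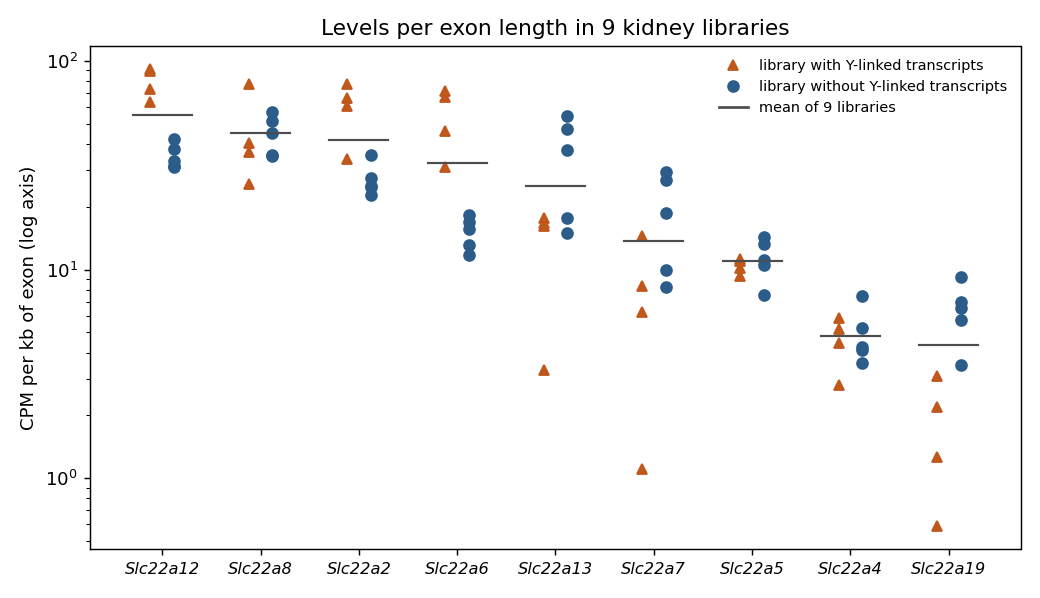
Levels of the 9 Slc22 genes in CPM per kb of exon, on a log axis, with 1 point for each of the 9 libraries and a line at their mean. Triangles are the 4 libraries with Y-linked transcripts and circles the 5 without; the 2 sets lie apart for Slc22a12, Slc22a6 and Slc22a19 and overlap for Slc22a5, Slc22a4 and Slc22a8.

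The basolateral anion exchangers Slc22a6 and Slc22a8 did not follow the same libraries. Slc22a6 (ENSMUSG00000024650.6, chromosome 19) had 72.7, 67.4 and 183 CPM in HFD-STZ DHZ, 62.3, 267 and 287 CPM in HFD-STZ vehicle and 124, 47.0 and 51.9 CPM in NCD vehicle, each in the order of replicates 1 to 3. The 4 highest of these 9 values were the 4 libraries with Y-linked transcripts, and all 3 groups overlapped. Slc22a8 (ENSMUSG00000063796.10, chromosome 19) had 223, 202 and 158 CPM in HFD-STZ DHZ, 177, 143 and 302 CPM in HFD-STZ vehicle and 100.4, 139 and 137 CPM in NCD vehicle. Its 3 lowest libraries were those of NCD vehicle, which overlapped with neither other group, and its libraries with and without Y-linked transcripts overlapped. Slc22a7 (ENSMUSG00000067144.8, chromosome 17), the anion carrier OAT2, had 17.3, 20.8 and 2.33 CPM in HFD-STZ DHZ, 39.4, 13.1 and 30.3 CPM in HFD-STZ vehicle and 17.6, 61.6 and 56.5 CPM in NCD vehicle. Within each group its lowest value came from a library with Y-linked transcripts, and the groups overlapped.

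Among the luminal carriers, Slc22a12 was high and Slc22a13 and Slc22a19 were low in the libraries with Y-linked transcripts. Slc22a12 (ENSMUSG00000061742.13, chromosome 19) had 69.9, 95.6 and 145 CPM in HFD-STZ DHZ, 74.8, 166 and 207 CPM in HFD-STZ vehicle and 203, 71.0 and 85.2 CPM in NCD vehicle. Its 4 highest values were again the 4 libraries with Y-linked transcripts. Slc22a13 (ENSMUSG00000074028.5, chromosome 9) had 30.1, 35.3 and 6.57 CPM in HFD-STZ DHZ, 109.5, 32.5 and 35.2 CPM in HFD-STZ vehicle and 33.4, 94.1 and 75.2 CPM in NCD vehicle. The groups overlapped, but within either kind of library HFD-STZ DHZ was lowest. With Y-linked transcripts it stood at 6.57 CPM, against 32.5 and 35.2 CPM in HFD-STZ vehicle and 33.4 CPM in NCD vehicle; without them at 30.1 and 35.3 CPM, against 109.5 CPM and against 94.1 and 75.2 CPM. Slc22a19 (ENSMUSG00000024757.8, chromosome 19) had 37.9, 31.0 and 3.20 CPM in HFD-STZ DHZ, 18.9, 11.9 and 16.7 CPM in HFD-STZ vehicle and 6.84, 49.8 and 35.5 CPM in NCD vehicle. Its 4 lowest values were the 4 libraries with Y-linked transcripts, and the groups overlapped.

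The cation carrier Slc22a2 was highest in HFD-STZ vehicle, while Slc22a4 was highest in HFD-STZ DHZ and Slc22a5 varied least over the libraries. Slc22a2 (ENSMUSG00000040966.11, chromosome 17) had 56.3, 62.2 and 83.8 CPM in HFD-STZ DHZ, 88.0, 165 and 192 CPM in HFD-STZ vehicle and 152, 68.3 and 61.8 CPM in NCD vehicle. All HFD-STZ DHZ values were below all HFD-STZ vehicle values, while NCD vehicle overlapped with both. Slc22a4 (ENSMUSG00000020334.7, chromosome 11) had 19.1, 13.4 and 15.0 CPM in HFD-STZ DHZ, 9.11, 13.2 and 11.4 CPM in HFD-STZ vehicle and 7.16, 10.5 and 10.9 CPM in NCD vehicle. Its HFD-STZ DHZ values were above those of both other groups, by a narrow margin over HFD-STZ vehicle. Slc22a5 (ENSMUSG00000018900.8, chromosome 11) had 40.7, 44.0 and 31.2 CPM in HFD-STZ DHZ, 23.3, 33.9 and 28.5 CPM in HFD-STZ vehicle and 34.3, 34.0 and 32.3 CPM in NCD vehicle, and its groups overlapped. Some reads may be shared by related genes, such as Slc22a4, Slc22a5 and their neighbour Slc22a21, or Slc22a19 and Slc22a26 to Slc22a30. Such reads cannot be separated here, since no source used here gives the counting settings, and their share was not measured.

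**Figure D2:**
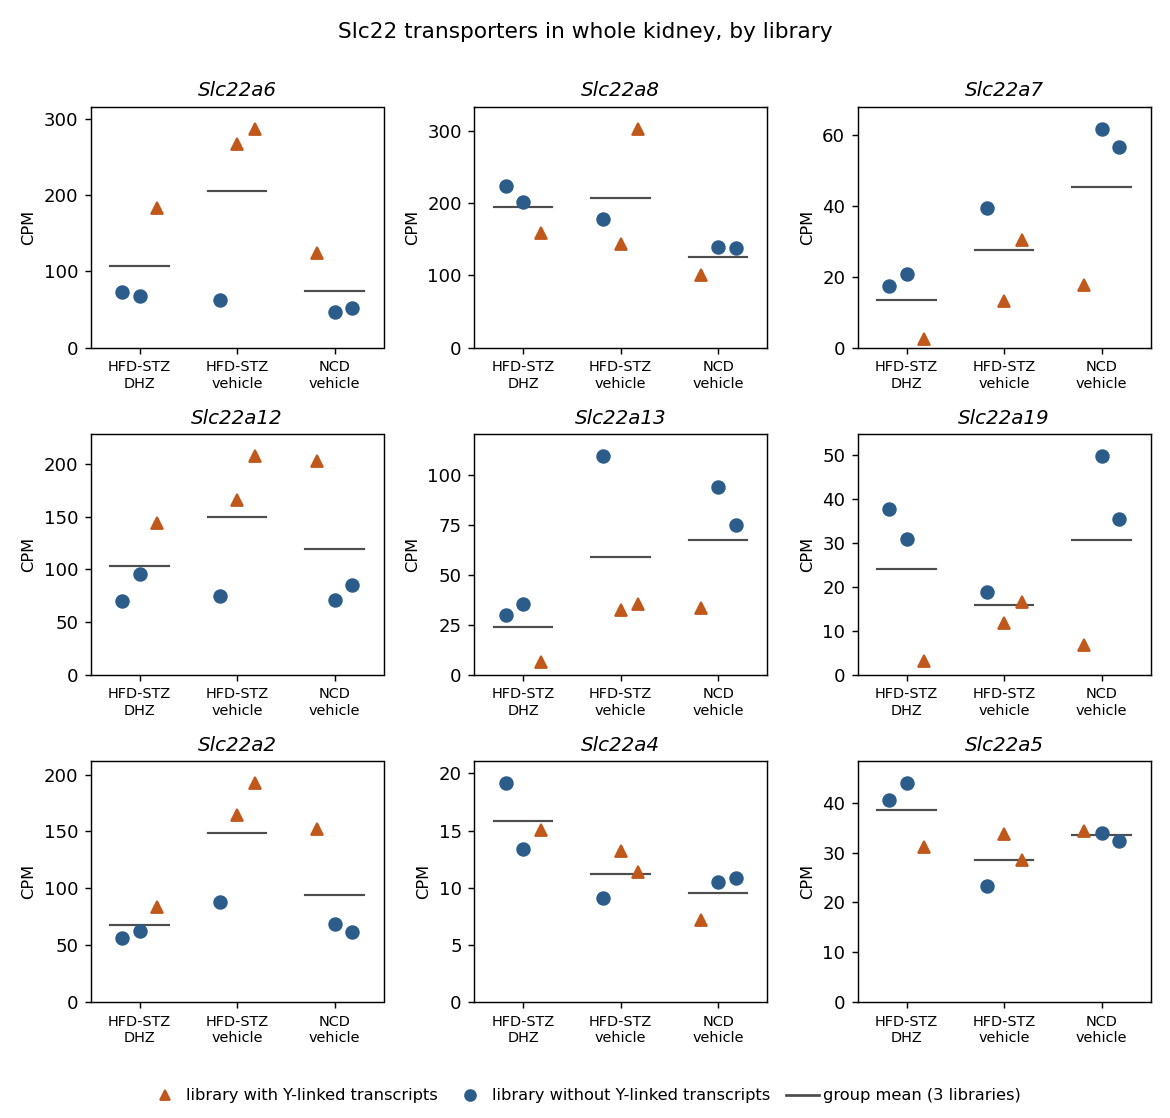
CPM of each of the 9 Slc22 genes in every library, by group, with replicates 1 to 3 from left to right and a line at the group mean. Triangles (with Y-linked transcripts) sit above circles for Slc22a6 and Slc22a12 and below them for Slc22a19, and the HFD-STZ DHZ points of Slc22a13 lie lowest within each symbol.

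Between libraries with and without Y-linked transcripts, 6 of the 9 genes differed, 3 higher and 3 lower. A term for these transcripts was added to group in the fit across all genes (edgeR's quasi-likelihood F-test, adjusted p below 0.05 by Benjamini-Hochberg over 17179 genes), in which 3.43% of all genes were called. With Y-linked transcripts Slc22a6 averaged 215 ± 75.7 CPM and without them 60.3 ± 10.7 (SD, n = 4 and 5), a log2 difference of 1.61 ± 0.20 (SE; adjusted p = 0.000507). Slc22a12 averaged 180 ± 30.3 CPM with and 79.3 ± 10.9 CPM without them, a log2 difference of 1.17 ± 0.20 (adjusted p = 0.00475), and Slc22a2 averaged 148 ± 46.1 and 67.3 ± 12.3 CPM, a log2 difference of 0.92 ± 0.19 (adjusted p = 0.015). These encode the urate reabsorber URAT1, the anion exchanger OAT1 and the cation carrier OCT2.

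The 3 lower genes were Slc22a13, Slc22a7 and Slc22a19. Slc22a13 averaged 26.9 ± 13.6 CPM with and 68.8 ± 35.2 CPM without Y-linked transcripts, a log2 difference of -1.76 ± 0.21 (adjusted p = 0.000299). Slc22a7 averaged 15.8 ± 11.6 and 39.1 ± 20.1 CPM, a log2 difference of -1.82 ± 0.37 (adjusted p = 0.0152), and Slc22a19 averaged 9.65 ± 5.89 and 34.6 ± 11.2 CPM, a log2 difference of -2.20 ± 0.47 (adjusted p = 0.0211). Slc22a4, Slc22a5 and Slc22a8 did not pass, with log2 differences of -0.09 ± 0.21, 0.01 ± 0.19 and -0.19 ± 0.26. The libraries with and without Y-linked transcripts did not overlap for Slc22a6, Slc22a12 and Slc22a19, 3 of 9 genes, against 5.59% of all genes. At an unadjusted p below 0.05 there were 6 of 9, against 16.3% of all genes.

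The split by Y-linked transcripts is also one of library composition. Mitochondrially encoded genes took 46.0% to 60.4% of the counts in the 4 libraries with Y-linked transcripts and 39.2% to 46.3% in the 5 without, and TMM factors were 0.327 to 1.25 and 1.22 to 1.63. Their part in these differences was not tested. Scaled by library size alone, the median log2 difference of all genes with against without Y-linked transcripts was -0.77 instead of -0.01, Slc22a2, Slc22a6 and Slc22a12 no longer passed (0.14, 0.86 and 0.40), and Slc22a7, Slc22a13 and Slc22a19 remained lower (-2.61, -2.56 and -2.95). The 9 proximal tubule markers other than Kap, which is itself higher in male mouse kidney, summed to 1981 to 3351 CPM with and 1804 to 2943 CPM without Y-linked transcripts. Kap was left out of this sum after the data were seen. It stood at 3648 to 9452 CPM with and 255 to 3249 CPM without Y-linked transcripts. Of the genes known as male-biased in mouse kidney, Kap among them, 5 of 6 were higher with Y-linked transcripts. Of the female-biased ones 4 of 4 were lower, while 3.43% of all genes were called in either direction. Both lists were chosen with earlier results of these data known. Without NCD vehicle replicate 1, only Slc22a6 and Slc22a13 still passed. Slc22a7 also lost its call without HFD-STZ DHZ replicate 3 (adjusted p = 0.09), Slc22a19 without that library (adjusted p = 0.153) or HFD-STZ vehicle replicate 2 (adjusted p = 0.136), and Slc22a2 without HFD-STZ vehicle replicate 1 or NCD vehicle replicates 2 or 3 (adjusted p = 0.0615 to 0.0703).

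**Figure D3:**
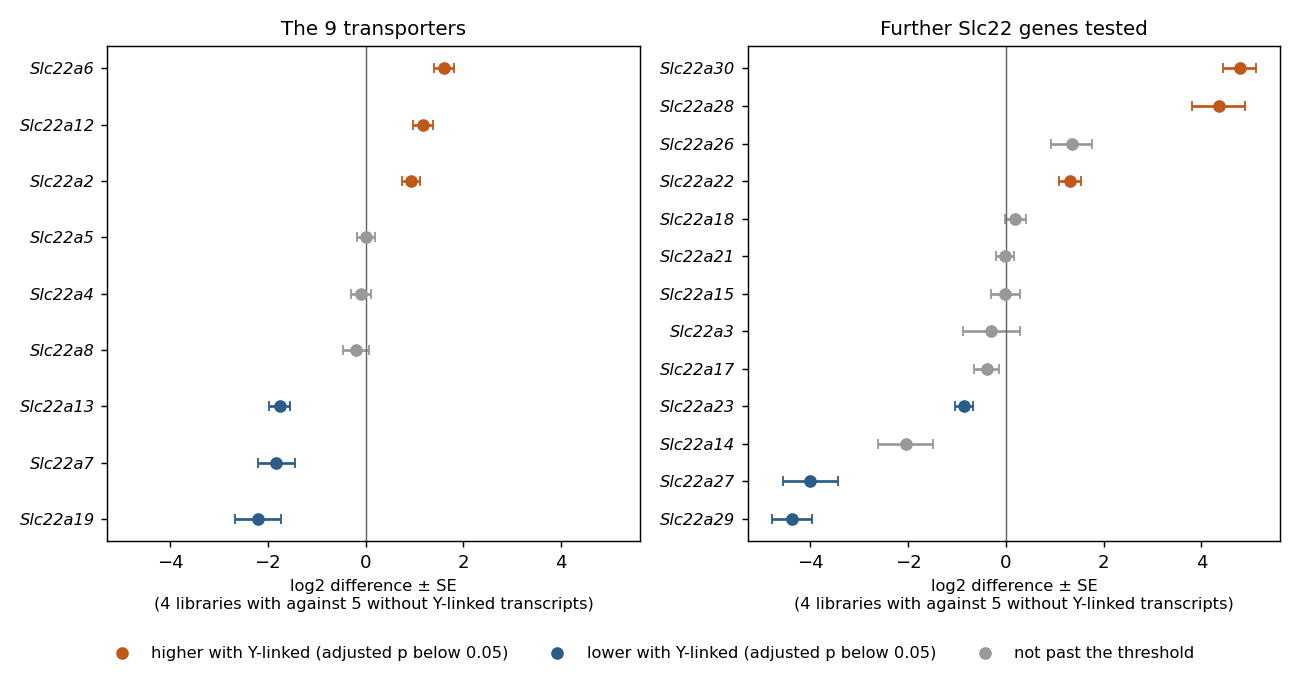
Log2 difference of each gene between the 4 libraries with and the 5 without Y-linked transcripts, with its SE, for the 9 transporters (left) and further Slc22 genes tested (right). Orange marks genes higher and blue genes lower at an adjusted p below 0.05, and Slc22a30 and Slc22a29 lie farthest from 0 on either side.

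Dehydrozingerone in diabetic mice was set against vehicle in diabetic mice to ask what the compound changed. With group as the only term, 0 of the 9 genes passed, while 22.1% of all genes were called, and the 9 had a median log2 fold change of -0.53, against 0.04 over all genes tested. Slc22a2 came nearest, at 67.4 ± 14.5 CPM in HFD-STZ DHZ and 148 ± 54.1 CPM in HFD-STZ vehicle (SD, n = 3 each), with a log2 fold change of -1.14 ± 0.38 and an adjusted p of 0.0504 (edgeR). It was the only 1 of the 9 at an unadjusted p below 0.05, against 37.1% of all genes, and DESeq2 called it alone (adjusted p = 0.0187). Slc22a13 had -1.30 ± 0.69, Slc22a7 -1.04 ± 0.79, Slc22a6 -0.93 ± 0.61, Slc22a4 0.51 ± 0.23 and Slc22a5 0.44 ± 0.21 on the log2 scale. Slc22a8, Slc22a12 and Slc22a19 had -0.09 ± 0.31, -0.53 ± 0.46 and 0.60 ± 0.91. The 2 groups did not overlap for Slc22a2 (lower) and Slc22a4 (higher), 2 of 9 genes, against 39.8% of all genes.

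HFD-STZ DHZ has 1 library of 3 with Y-linked transcripts and HFD-STZ vehicle has 2, so the comparison was also fitted with the Y-linked term beside group. In that fit 3 of the 9 genes fell with DHZ and 0 rose, while 21.3% of all genes were called. For 9 genes this count is near that share and is no result about the 9 as a set. Slc22a13 fell by 1.94 ± 0.25 on the log2 scale (adjusted p = 0.00136), a level 3.85-fold lower. Slc22a7 fell by 2.04 ± 0.44 (adjusted p = 0.00801) and Slc22a2 by 0.76 ± 0.23 (adjusted p = 0.0332). These 3 genes encode a luminal urate and nicotinate carrier, an anion carrier and the basolateral cation carrier. The other 6 did not pass, with adjusted p of 0.172 or above.

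The 3 calls differ in how far they rest on single libraries. The fall of Slc22a13 passed without each of the 9 libraries in turn (log2 -2.08 to -1.62, adjusted p = 0.000713 to 0.0366). It passed without HFD-STZ DHZ replicate 3 (log2 -1.62, adjusted p = 0.0168), and also with library size alone as the scaling (log2 -1.37, adjusted p = 0.0314). Slc22a7 lost its call without HFD-STZ DHZ replicate 3, its lowest library (log2 -1.35, adjusted p = 0.0698), and kept it without each other library. Slc22a2 lost its call without any 1 of HFD-STZ DHZ replicates 1 to 3, HFD-STZ vehicle replicate 1 or NCD vehicle replicates 2 or 3 (adjusted p = 0.0522 to 0.263), and its log2 fold change was -0.17 with library size alone.

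Markers of several cell types were set beside this comparison, in the fit by group alone, which called 22.1% of all genes. Of 10 proximal tubule markers 2 were higher with DHZ and 0 lower (median log2 fold change 0.44), a share near that of all genes. Of 4 markers of the S1 segment of this tubule 3 were higher. Slc5a2, which was called, and Slc5a12 are in both lists. The S1 markers summed to 94.2 to 111 CPM in HFD-STZ DHZ, 47.9 to 66.4 CPM in HFD-STZ vehicle and 110.6 to 163 CPM in NCD vehicle. Of 6 markers of the S3 segment 1 was higher and 0 lower, and the sums were 227 to 361 CPM and 139.5 to 731 CPM. These sums include Slc7a13, which was high only in libraries with Y-linked transcripts. By replicates 1 to 3 it had 0.882, 0.895 and 96.0 CPM in HFD-STZ DHZ and 0.813, 228 and 412 CPM in HFD-STZ vehicle. The 5 markers of tubular injury summed to 13.8 to 100.1 CPM in HFD-STZ DHZ and 15.0 to 24.9 CPM in HFD-STZ vehicle, with HFD-STZ DHZ replicate 3 at the top, and 1 of the 4 tested was higher and 1 lower. Of 5 podocyte markers 2 were higher and 0 lower (sums of 67.6 to 87.6 CPM and 20.9 to 43.4 CPM), and of 5 immune markers 2 were higher and 1 lower (24.2 to 32.1 CPM and 19.4 to 41.9 CPM). In whole tissue, fewer cells of a type and less RNA per cell cannot be told apart, and the part of these markers in the results on the transporters was not tested. Over all genes 1726 were higher and 2070 lower with DHZ, and with library size alone 832 were higher and 56 lower, with a median log2 fold change over all genes of 0.81.

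**Figure D4:**
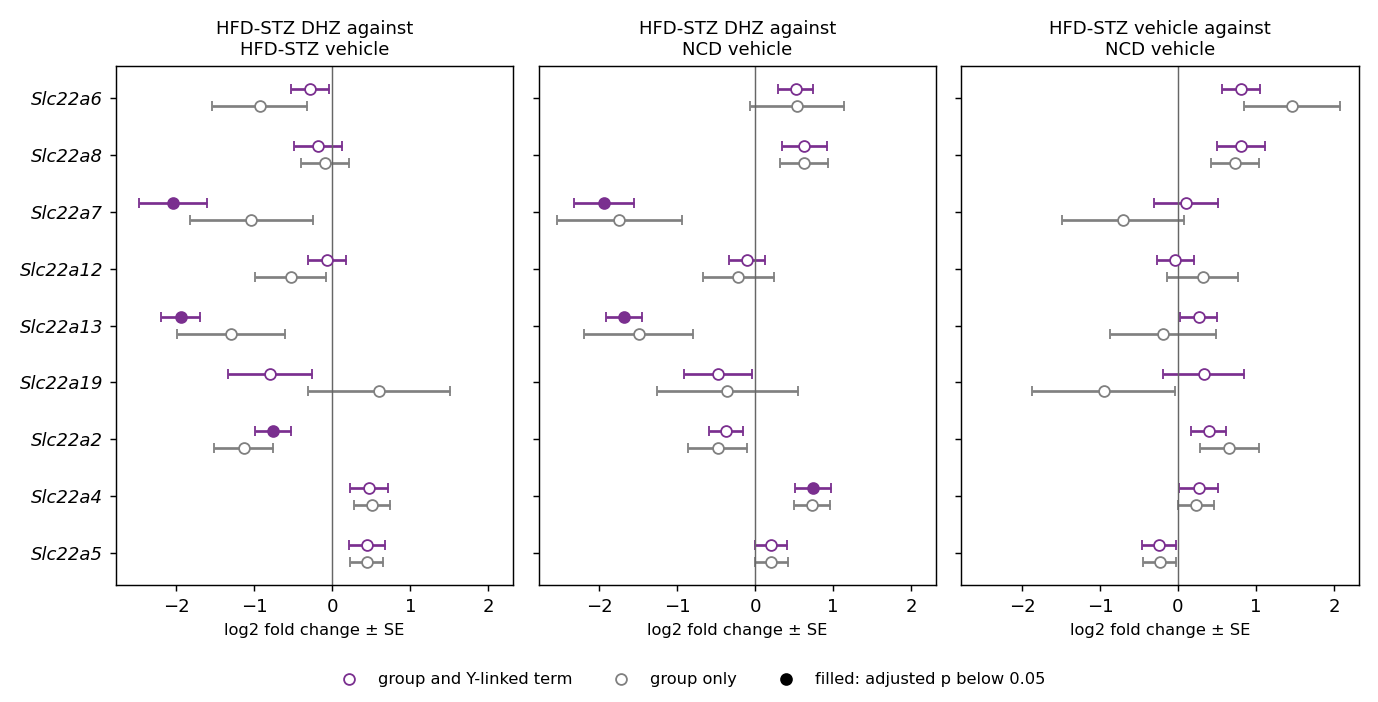
Log2 fold change with its SE of the 9 Slc22 genes in the 3 comparisons, from the fit with group and a Y-linked term (purple) and from the fit with group only (grey); filled points have an adjusted p below 0.05. The filled points are Slc22a7, Slc22a13 and Slc22a2 in the panel of DHZ against HFD-STZ vehicle, and Slc22a7, Slc22a13 and Slc22a4 in that of DHZ against NCD vehicle.

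HFD-STZ DHZ was next set against NCD vehicle, the healthy group. These groups differ in diet, STZ and DHZ at once, so the parts of the 3 in any difference cannot be told apart. With group as the only term 0 of the 9 genes passed, while 13.7% of all genes were called, and the 9 had a median log2 fold change of -0.21, against 0.01 over all genes. Slc22a4 came nearest, at 15.9 ± 2.95 CPM in HFD-STZ DHZ and 9.50 ± 2.03 CPM in NCD vehicle, with a log2 fold change of 0.73 ± 0.23 (edgeR, adjusted p = 0.0527). It was the only 1 of the 9 at an unadjusted p below 0.05, against 31.7% of all genes, and DESeq2 called it alone (adjusted p = 0.0297). Groups did not overlap for Slc22a4 and Slc22a8, both higher in HFD-STZ DHZ, 2 of 9 genes against 44.1% of all genes. For Slc22a8, HFD-STZ vehicle was also above NCD vehicle without overlap. Between HFD-STZ DHZ and HFD-STZ vehicle, Slc22a8 had a log2 fold change of -0.09 ± 0.31. With the Y-linked term 21.1% of all genes were called and 3 of the 9 passed, a count near that share and no result about the 9 as a set. In HFD-STZ DHZ, Slc22a13 was lower by 1.68 ± 0.23 (adjusted p = 0.00243) and Slc22a7 lower by 1.93 ± 0.39 (adjusted p = 0.00676) on the log2 scale. Slc22a4, the ergothioneine carrier, was higher by 0.74 ± 0.23 (adjusted p = 0.0387). Slc22a13 passed without each library in turn, Slc22a7 lost its call only without NCD vehicle replicate 1 (adjusted p = 0.0519), and both passed without HFD-STZ DHZ replicate 3 (log2 -1.42 and -1.48, adjusted p = 0.0133 and 0.0272). Slc22a4 lost its call without any 1 library of either group compared (adjusted p = 0.0577 to 0.228). The comparison shares the HFD-STZ DHZ libraries with the one against HFD-STZ vehicle.

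The diabetic and healthy vehicle groups were compared to ask what the model changed, and 0 of the 9 genes passed in either fit. With group alone 0.0524% of all genes were called, and with the Y-linked term 0.244%. By group alone 2 of the 9 were at an unadjusted p below 0.05, against 7.43% of all genes, and DESeq2 called 0. Slc22a6 averaged 205 ± 124 CPM in HFD-STZ vehicle and 74.3 ± 43.1 CPM in NCD vehicle, a log2 fold change of 1.47 ± 0.62 (edgeR, adjusted p = 0.648), and of 0.80 ± 0.25 with the Y-linked term (adjusted p = 0.365). Slc22a8 averaged 207 ± 83.7 and 125 ± 21.8 CPM, a log2 fold change of 0.73 ± 0.31 (adjusted p = 0.642), and its groups did not overlap, as for 1 of the 9 genes and 11.4% of all genes. Both exchangers thus had higher means in the diabetic group without passing the threshold over all genes. The remaining 7 genes had log2 fold changes of -0.95 ± 0.92 (Slc22a19) to 0.66 ± 0.38 (Slc22a2).

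Of the 16 other Slc22 genes listed, 14 passed the filter, and 6 of them differed with Y-linked transcripts, 3 higher and 3 lower, against 3.43% of all genes. These include 4 genes of chromosome 19, the chromosome of Slc22a19, with far larger differences than any of the 9. Slc22a30 had 56.1, 116, 97.1 and 60.7 CPM with and 1.46 to 4.57 CPM without Y-linked transcripts, a log2 difference of 4.78 ± 0.34 (adjusted p = 3.48e-06). Slc22a29 had 0.27 to 3.90 CPM with and 25.2 to 40.3 CPM without, a log2 difference of -4.38 ± 0.41 (adjusted p = 3.73e-05). Slc22a28 was higher (4.35 ± 0.55) and Slc22a27 lower (-3.99 ± 0.56), so that the genes of this chromosome went both ways. Slc22a27 had counts of only 1 to 4 in the libraries with Y-linked transcripts, so the size of its difference is uncertain. Slc22a22 was higher (1.32 ± 0.22) and Slc22a23 lower (-0.86 ± 0.18). By group, 1 of the 14 rose and 1 fell with DHZ against HFD-STZ vehicle, where 22.1% of all genes were called. In HFD-STZ DHZ against NCD vehicle 1 was lower, where 13.7% were called. Slc22a18 was at 41.2 ± 5.83 CPM in HFD-STZ DHZ, against 77.5 ± 23.5 CPM in HFD-STZ vehicle and 89.2 ± 15.3 CPM in NCD vehicle (log2 -0.91 ± 0.26 and -1.11 ± 0.26, adjusted p = 0.0264 and 0.0201). Slc22a23 rose with DHZ, at 12.3 ± 2.33 CPM against 5.36 ± 2.08 CPM in HFD-STZ vehicle (log2 1.19 ± 0.35, adjusted p = 0.0317). The other 8 tested, among them the cation carrier gene Slc22a3 and the OCTN family gene Slc22a21, did not pass with Y-linked transcripts.

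**Figure D5:**
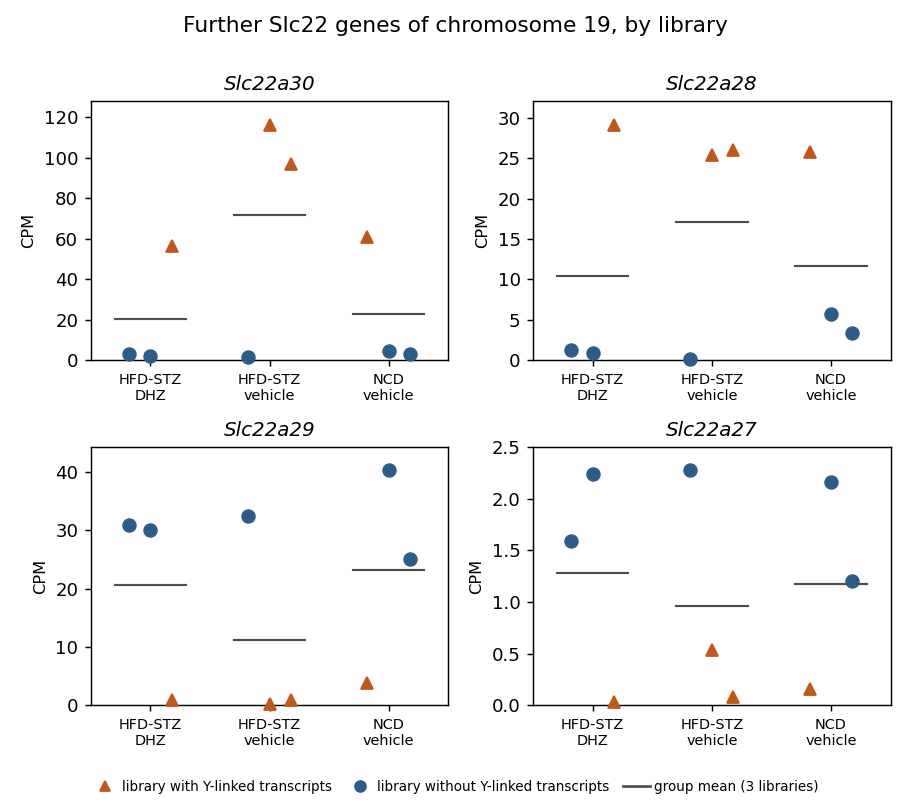
CPM of 4 further Slc22 genes of chromosome 19 in every library, by group, with a line at the group mean. Slc22a30 and Slc22a28 are high, and Slc22a29 and Slc22a27 low, in each of the 4 libraries with Y-linked transcripts (triangles).

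In each list of 7 to 10 partner genes of these carriers, 0 to 2 passed by group. In DHZ against HFD-STZ vehicle 22.1% of all genes were called, and against NCD vehicle 13.7%, so these counts are near or below the background and are no result about the lists. Of 10 tested genes for the exit of anions and cations into urine, 1 fell and 0 rose with DHZ against HFD-STZ vehicle, and it was the anion carrier gene Slc17a4 (log2 -1.35 ± 0.39, adjusted p = 0.0281). Against NCD vehicle, Slc17a4 was lower in HFD-STZ DHZ (-1.49 ± 0.37) and the efflux pump gene Abcc4 higher (1.16 ± 0.35), 1 in each direction. Of 8 genes that supply counter-ions or anchor carriers, 1 rose with DHZ against HFD-STZ vehicle, Pdzk1 (1.02 ± 0.27, adjusted p = 0.0223), the scaffold known to bind URAT1. Of 10 other anion and urate carriers, Slco3a1 fell against HFD-STZ vehicle (-1.79 ± 0.54) and Slco2b1 fell against NCD vehicle (-0.91 ± 0.23), 1 of 10 each. Of the listed transcription factors, Bcl6 (-1.85 ± 0.47) and Ppara (-0.87 ± 0.24) fell against HFD-STZ vehicle, while 0 of the list passed against NCD vehicle. Of 7 carnitine genes, Cpt1a, which starts the entry of fatty acids into mitochondria, rose against both HFD-STZ vehicle (1.13 ± 0.20) and NCD vehicle (1.04 ± 0.20). None of these lists held a called gene in HFD-STZ vehicle against NCD vehicle (edgeR, 0 in all 5).

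With Y-linked transcripts, 3.43% of all genes were called, and partner genes were called in both directions. Among the exit carriers Slc17a3, known in humans as a urate exporter, was higher (0.95 ± 0.20) and Slc17a2 (-6.71 ± 0.42) and Abcb1b (-1.37 ± 0.19) were lower, 3 of 10. Among the other anion carriers Slco1a1 (10.47 ± 0.31) and Slco3a1 (1.37 ± 0.17) were higher, 2 of 10. Slc17a2 had counts of only 0 to 4 in the libraries with Y-linked transcripts, and Slco1a1 only 0 to 1 in those without. The sizes of the log2 differences of Slc17a2 and Slco1a1 are therefore not measured folds. Of the counter-ion and scaffold genes, Slc16a7 was lower (-1.05 ± 0.26), 1 of 8, and 0 of 7 carnitine genes passed. Of the transcription factors, the bile acid receptor gene Nr1h4 was higher (1.36 ± 0.18) and Nr1i2 lower (-0.98 ± 0.24).

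The genes whose levels ran most alike to each transporter over the 9 libraries were picked by Pearson's r of log2 CPM. Slc22a7 and Slc22a13 ran together (r = 0.953), as did Slc22a2 and Slc22a12 (0.883), Slc22a6 and Slc22a12 (0.878) and Slc22a2 and Slc22a6 (0.833). The lowest value among the 9 was between Slc22a12 and Slc22a19 (-0.717). Genes with only a gene-model name, pseudogenes and genes without a symbol were left out of the ranking. Among the rest, Slc22a6 was most like Fbxo36 (0.979) and Cyp4b1 (0.977), Slc22a12 most like Rex2 (0.976) and Macrod2 (0.974), and Slc22a2 most like Pcyox1l (0.975) and Cyb5r3 (0.971). Rex2 had low counts, 0 to 44 a library. Slc22a4 was most like the efflux pump gene Abcc4 (0.976) and Brd1 (0.967), and Slc22a8 most like the dicarboxylate carrier gene Slc13a3 (0.939) and Ntpcr (0.921). Slc22a7 was most like Slc2a4 (0.970) and Slc22a13, Slc22a13 most like Cnpy1 (0.959) and Kng1 (0.955), Slc22a19 most like Rai2 (0.971) and Stk32b (0.970), and Slc22a5 most like Smim8 (0.943) and Gid4 (0.938). All these values share the 9 libraries and their depths and compositions, and the highest of all genes ranked is high by selection.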

How the data were processed

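RNA was extracted from 9 kidney samples and polyadenylated RNA was captured for a stranded library, per the labels' protocols. STAR, Trim Galore and FastQC are named with build GRCm39 (mm39), per the submitters' processing notes. Tool versions, annotation, the counter and how it treated strand and shared reads are not given in the sources used. The authors deposited raw counts per gene as whole numbers, with 0 further columns of per-sample values. Symbols were matched on Ensembl identifiers for 94.1% of genes, and exon lengths came from an older annotation, GENCODE M21 on GRCm38.

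In R 4.3.3, edgeR 4.0.16 fitted all 9 libraries together after filterByExpr (17179 genes) and TMM scaling. Group was the only term, with 6 residual degrees of freedom, and robust two-sided quasi-likelihood F-tests were adjusted by Benjamini-Hochberg over all genes, with 0.05 as the threshold. SEs come from the F statistic, and every adjusted p in the text is from this test unless DESeq2 is named. A second fit added whether the summed CPM of 4 Y-linked genes, of the total count, exceeded 1. Likeness used log2 CPM with a prior count of 2, without genes named by gene-model numbers (Gm or Rik), pseudogenes or genes without a symbol. Alternatives were library size alone, DESeq2 1.42.0 size factors, no filter, 2 groups only, the replicate number as a block, mitochondrial genes left out, DESeq2, and each library left out. The script was tested on simulated data. No 2 libraries of a group agreed within sampling noise. A count of 1 was worth 0.0154 to 0.135 CPM, highest in HFD-STZ vehicle replicate 2.

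The 9 genes, the gene lists and the naming rule (all 9, the list members called in any group comparison, and the 2 genes most like each) were chosen with earlier results of these data known. List members named for the Y-linked term were added after their values were seen. Some results of the lists are withheld for evaluation and are not reported here.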

Additional observations from a re-analysis of the deposited data

How the results depend on the processing

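Of 729 values for the 9 genes under the alternatives, leave-one-out fits included, 634 kept their direction and their side of the threshold, 24 gained a call and 32 lost one, and 39 changed direction. 0 of these 39 changes of direction started from a called value and 0 ended in one. The causes were not tested. Each group has 3 libraries of mixed Y-linked status, and HFD-STZ vehicle replicate 2 had the fewest counts on nuclear coding genes, 2.13 M.

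By group alone in HFD-STZ DHZ against HFD-STZ vehicle, the genes called among the 9 numbered 1 with DESeq2 size factors, 1 with only the 2 groups compared, 1 with DESeq2, 4 without the filter and 3 with the Y-linked term. In HFD-STZ DHZ against NCD vehicle they numbered 1 with only the 2 groups, 1 with DESeq2, 3 without the filter and 3 with the Y-linked term, and in HFD-STZ vehicle against NCD vehicle 2 without the filter. Over all genes, HFD-STZ vehicle against NCD vehicle gave 425 calls without the filter, 3 with only the 2 groups, 42 with the Y-linked term and 124 with DESeq2, against 9. HFD-STZ DHZ against NCD vehicle gave 3981 with only the 2 groups and 3617 with the Y-linked term, against 2352.

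With library size alone, HFD-STZ DHZ against HFD-STZ vehicle gave 888 calls over all genes against 3796, 29 came from HFD-STZ vehicle against NCD vehicle and 36 from HFD-STZ DHZ against NCD vehicle. In the first of these, log2 fold changes turned to 0.15 for Slc22a6, 0.64 for Slc22a8 and 0.43 for Slc22a12. In HFD-STZ vehicle against NCD vehicle they turned to -0.037 for Slc22a2, -0.68 for Slc22a4, -0.038 for Slc22a8 and -0.39 for Slc22a12, and in HFD-STZ DHZ against NCD vehicle to 0.042 for Slc22a12. With against without Y-linked transcripts, 3 of the 9 were called, and Slc22a5 turned to -0.79 (and to -0.027 without the filter). Beside the Y-linked term, library size alone, an alternative added after the data were seen, gave 2219 calls for DHZ against HFD-STZ vehicle and 257 for DHZ against NCD vehicle. There it turned HFD-STZ vehicle against NCD vehicle to -0.077 for Slc22a2, -0.32 for Slc22a4, -0.31 for Slc22a7 and -0.20 for Slc22a13.

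The Y-linked term turned Slc22a19 to -0.80 in HFD-STZ DHZ against HFD-STZ vehicle. In HFD-STZ vehicle against NCD vehicle it turned Slc22a7 to 0.11, Slc22a12 to -0.036, Slc22a13 to 0.27 and Slc22a19 to 0.33.

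Same-numbered libraries did not deviate together (r -0.409 to 0.224 over 9 pairs, 3 of them above 0.1, and 1 of 9 libraries closest to its own number), so no pairing by number was seen. Libraries of each number differ in Y-linked status, and whether this hides a pairing was not tested. With the replicate number as a block, calls over all genes were 2159 for DHZ against HFD-STZ vehicle, 2 in HFD-STZ vehicle against NCD vehicle and 772 in HFD-STZ DHZ against NCD vehicle. Beside the Y-linked term the block left Slc22a13 lower in HFD-STZ DHZ against HFD-STZ vehicle (adjusted p = 0.00308).

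Leaving out each library in turn, by group alone, calls over all genes ran from 1149 to 4086 for DHZ against HFD-STZ vehicle, 2 to 28 in HFD-STZ vehicle against NCD vehicle and 112 to 3706 in HFD-STZ DHZ against NCD vehicle. With the Y-linked term they ran from 380 to 4671, 3 to 65 and 491 to 5441 in the same order. Calls among the 9 ran from 0 to 1 in both comparisons of HFD-STZ DHZ by group alone. With the Y-linked term they ran from 1 to 3 against HFD-STZ vehicle and 1 to 4 against NCD vehicle, and for the Y-linked difference itself from 2 to 6. In HFD-STZ DHZ against HFD-STZ vehicle, Slc22a8 ran from -0.30 to 0.29. In HFD-STZ vehicle against NCD vehicle, Slc22a12 ran from -4e-04 to 0.93 and Slc22a13 from -0.98 to 0.12. In HFD-STZ DHZ against NCD vehicle, Slc22a2 ran from -0.70 to 0.055, Slc22a6 from -0.074 to 1.12, Slc22a12 from -0.52 to 0.41 and Slc22a19 from -0.83 to 0.18. The Y-linked difference ran from -0.32 to 0.14 for Slc22a4 and from -0.18 to 0.23 for Slc22a5. With the Y-linked term, Slc22a4 ran from -0.041 to 0.61 and Slc22a7 from -0.46 to 0.70 in HFD-STZ vehicle against NCD vehicle. A fit left with 1 library of a kind in a group assumes that it varies like the others.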
